A study of Mus musculus with 37 samples.

Results

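Brown adipose tissue of the BXD mice differed between strains in how much skeletal muscle transcript it held, and the strains at the ends of that scale are compared here. The BXD strains are recombinant inbred mice bred from C57BL/6J and DBA/2J, so each strain carries its own fixed mixture of the parental genomes. Each of the 35 strains had 1 array, made from RNA pooled from approximately 5 animals, and 2 further arrays held the parents. The animals were males by the study's methods, perfused at death. All ate Harlan 2018 chow for life, were fasted overnight and were killed at 29 weeks, so the labels give no diet or treatment that differs between the groups below. Strain cannot be told apart from pool, dissection or array, since each strain was 1 pool on 1 array. The strains were chosen by their measured levels of muscle transcripts: for each strain the levels of 12 skeletal muscle genes were averaged into a muscle score, and the 12 strains with the highest score (muscle-rich) were set against the 12 with the lowest (muscle-poor), so that 24 of the 37 arrays entered the comparison and the 11 strains between them did not.

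Skeletal muscle is built from fast and slow fibres, each with its own set of myosins, troponins and calcium-handling proteins arranged in sarcomeres. Brown fat burns lipid for heat through UCP1, a mitochondrial uncoupler, and the interscapular and other depots lie directly on or between muscles. Brown adipocytes and skeletal muscle also share a precursor population in the embryo, and the cells that the muscle transcripts came from cannot be told apart in pooled tissue RNA. The same holds for fewer cells of a type and less RNA per cell.

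The ranking genes were Acta1 (skeletal actin), Ckm (muscle creatine kinase), the fast myosin heavy chains Myh1, Myh2 and Myh4, the fast troponins Tnnt3 and Tnni2, the light chains Mylpf and Myl1, the calcium buffer Pvalb, the fast-fibre Z-disc protein Actn3 and the fast calcium pump Atp2a1. Start-site windows of 3 of them are printed with those of Pygm and Myoz2, which were not used for the ranking and of which the first followed the score most closely and the second differed most between the groups. Each window runs from 250 bases before to 50 bases after the annotated start, 5′ to 3′ on the strand of the gene, from RefSeq on GRCm38.p6: Acta1 at chr8:123894726-123895025 on the minus strand, Ckm at chr7:19410844-19411143 on the plus strand, Myh4 at chr11:67237562-67237861 on the plus strand, Pygm at chr19:6384158-6384457 on the plus strand and Myoz2 at chr3:123034938-123035237 on the minus strand. Capitals mark the E-box CANNTG, which the MyoD family of factors binds, the TATA motif TATAAA on either strand, the CArG box bound by serum response factor and the MEF2 site; in Myh4 a reverse-strand TATA motif lies within the MEF2 site.
Acta1: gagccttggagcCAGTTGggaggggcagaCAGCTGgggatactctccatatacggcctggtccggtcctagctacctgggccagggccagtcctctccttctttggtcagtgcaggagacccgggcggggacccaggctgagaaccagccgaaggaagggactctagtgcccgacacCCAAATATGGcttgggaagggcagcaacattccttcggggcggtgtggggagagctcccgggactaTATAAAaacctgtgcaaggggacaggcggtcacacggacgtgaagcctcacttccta
Ckm: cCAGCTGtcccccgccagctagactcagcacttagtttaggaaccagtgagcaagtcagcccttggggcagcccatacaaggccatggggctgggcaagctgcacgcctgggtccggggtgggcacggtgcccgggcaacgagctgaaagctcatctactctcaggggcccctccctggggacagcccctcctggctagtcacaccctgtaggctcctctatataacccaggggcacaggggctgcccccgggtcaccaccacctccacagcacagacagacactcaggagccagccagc
Myh4: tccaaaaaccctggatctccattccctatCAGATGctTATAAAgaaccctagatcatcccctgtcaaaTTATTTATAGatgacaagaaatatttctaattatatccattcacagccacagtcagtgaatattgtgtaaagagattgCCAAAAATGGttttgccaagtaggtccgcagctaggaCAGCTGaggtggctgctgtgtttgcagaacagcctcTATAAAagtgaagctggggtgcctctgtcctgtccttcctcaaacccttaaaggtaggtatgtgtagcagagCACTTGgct
Pygm: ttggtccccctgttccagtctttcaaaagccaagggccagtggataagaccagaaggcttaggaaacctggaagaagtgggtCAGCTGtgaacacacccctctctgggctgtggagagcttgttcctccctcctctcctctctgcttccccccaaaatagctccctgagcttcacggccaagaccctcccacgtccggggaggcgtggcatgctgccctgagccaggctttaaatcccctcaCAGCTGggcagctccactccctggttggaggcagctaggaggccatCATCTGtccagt
Myoz2: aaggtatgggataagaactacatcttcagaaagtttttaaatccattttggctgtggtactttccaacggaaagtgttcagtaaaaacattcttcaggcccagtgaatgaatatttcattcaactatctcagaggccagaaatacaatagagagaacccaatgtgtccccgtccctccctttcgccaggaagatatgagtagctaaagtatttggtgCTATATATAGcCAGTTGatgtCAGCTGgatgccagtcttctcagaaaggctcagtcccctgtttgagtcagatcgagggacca

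A match of letters in these windows is a description and not a binding site. The CArG box was present in the windows of Acta1 and Myh4 and the MEF2 site in those of Myh4 and Myoz2, while those of Ckm and Pygm held E-boxes alone.

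Levels are given in the rescaled units of the deposited table, where each array has mean 8 and SD 2 by construction. Folds are called nominal because they take 1 unit as a doubling, which holds if log2 levels already had an SD of 2 when the rescaling was done. The muscle score ranged over 3.56 units among the 35 strains, nominally 11.8-fold. In the muscle-rich group it was 13.60 in BXD97, 13.32 in BXD83, 13.30 in BXD69, 13.10 in BXD56, 13.09 in BXD96, 13.07 in BXD43, 12.99 in BXD79, 12.88 in BXD61, 12.82 in both BXD55 and BXD45, 12.80 in BXD50 and 12.75 in BXD84. In the muscle-poor group it was 12.34 in BXD48, 12.30 in BXD51, 12.24 in BXD71, 12.09 in BXD75, 12.004 in BXD70, 11.56 in BXD49, 11.49 in BXD89, 11.21 in BXD90, 10.94 in BXD81, 10.79 in BXD85, 10.66 in BXD95 and 10.04 in BXD65. The poor strains were spread widely (SD 0.75, n = 12) and the rich strains lay close together (SD 0.26, n = 12), so the scale is a plateau with a long lower tail and not a pair of clusters. The thresholds fell where strains were dense: BXD84, the last muscle-rich strain, was 0.0201 units above BXD87, and BXD103 was 0.0195 above BXD48, the first muscle-poor strain. C57BL/6J (12.98) and DBA/2J (12.71) both lay above the tail, the first among the rich and the second among the middle strains.

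**Figure D1:**
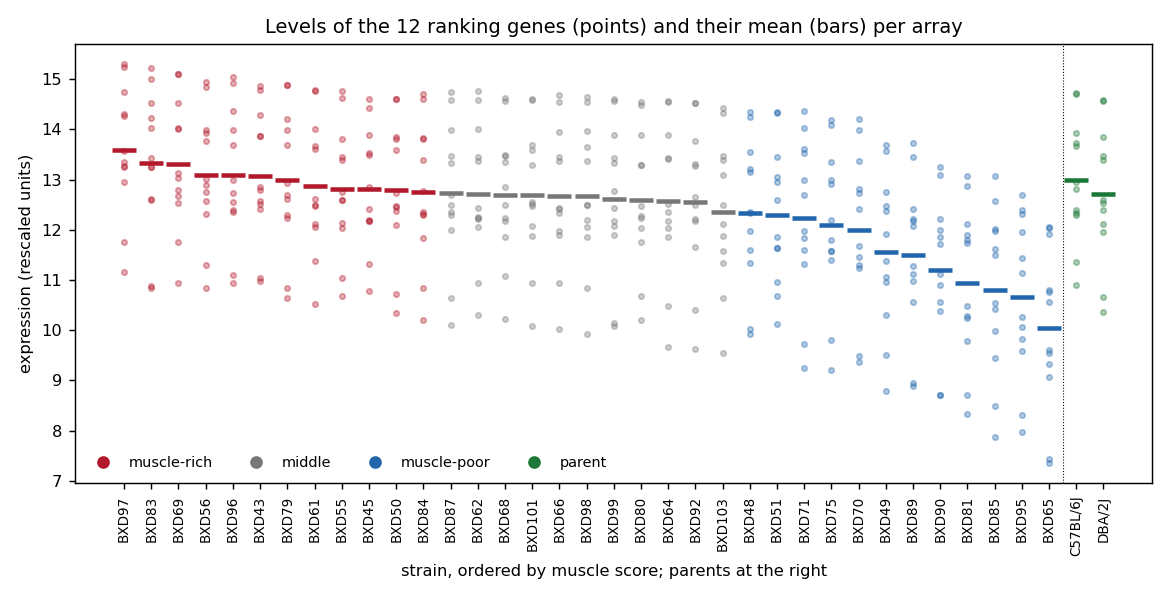
Levels of the 12 ranking genes (points) and the muscle score (bars) on each array, in rescaled units, with the 35 BXD strains ordered by score and the 2 parents at the right. The score falls slowly from 13.60 in BXD97 to 12.34 in BXD48 and then steeply to 10.04 in BXD65.

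The values that chose the strains are a description and carry no test. Acta1 ran from 14.44 to 15.31 with a median of 14.81 in the rich strains and from 12.05 to 14.35 with a median of 13.51 in the poor ones, Ckm from 13.39 to 14.26 (median 13.68) against 10.80 to 13.22 (median 12.30), and Myh4 from 13.80 to 14.75 (median 14.11) against 10.77 to 13.61 (median 12.58). None of these 3 markers overlapped between the groups, and BXD97 was highest and BXD65 lowest in each, as the label of the groups requires. Even BXD65 had Acta1 at 12.05, well above 7.94, the 95th percentile of the 1128 olfactory receptor probe sets taken here as a mark of background, so muscle-poor does not mean free of muscle transcripts. Over the 66 pairs of ranking genes the correlation across 35 strains was 0.95 in the median and ranged from 0.73 to 0.99; the points share array, pool and rescaling. Myl1 was the least like the others (r = 0.77 with the score), and it ran from 12.30 to 13.25 in the rich strains and from 11.91 to 12.69 in the poor ones, which overlapped. The brown fat marker Ucp1 stood between 14.82 and 15.61 in the rich and between 15.24 and 15.63 in the poor strains, so every array of both groups carried the transcript of the labelled tissue at a high level.

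Both ends were then compared over all 41142 probe sets outside the ranking genes and the array's controls with limma and Benjamini-Hochberg adjustment. In the rich strains 581 probe sets were higher, 1.41% of those tested, and 79 were lower, 0.192%, at an adjusted p under 0.05. The groups were built from the same arrays, so these p-values measure how a transcript follows the ranking over strains, and a muscle gene that passes is not independent evidence for it. The calls held 538 named genes that were higher and 57 that were lower of 24645 named genes tested. Of the higher genes 145 differed by over 1 unit, whereas the largest fall was 0.58 units and only 3 fell by over 0.5. The median difference over all probe sets was -0.01 units and 46.53% were above 0. The authors' rescaling of every array to 1 mean holds the mean difference near 0, but does not fix the median or this share. The 8 lists of skeletal muscle genes held 87 of the 538 higher genes and none of the lower ones.

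Sarcomere genes differed most. Among 29 fast-fibre and shared sarcomere genes outside the ranking 26 rose in the rich strains and none fell, with a median difference of 1.65 units. Xirp2, an actin-binding protein of the myotendinous junction and of intercalated discs, ran from 11.11 to 12.25 (median 11.63) in the rich strains and from 7.75 to 10.56 (median 9.51) in the poor ones, without overlap. It differed by 2.12 units (SE 0.26, limma adjusted p = 7.59e-06). Lack of overlap is a description here and below, since the groups are the ends of a score that these genes follow. How many of all probe sets lacked overlap between the groups was not counted, so no share stands beside the genes named here and below. Ttn (titin, the elastic ruler of the sarcomere) ran from 13.71 to 14.46 against 10.50 to 13.40 and Neb (nebulin, which runs along the thin filament) from 13.26 to 14.01 against 10.07 to 13.02; both differed by about the same amount, 1.75 (SE 0.27) and 1.76 (SE 0.27), and neither overlapped. Actn2, the alpha-actinin of all fibre types, rose by 2.10 (SE 0.30), with BXD51 of the poor group at 12.13, above the 12.10 of BXD50. The troponin C of fast fibres, Tnnc2, differed by 1.53. Members of the list that did not pass were the developmental myosin Myh3 (0.25, adjusted p = 0.133), the extraocular myosin Myh13 (0.06) and Mybph (0.03); the perinatal myosin Myh8 passed at 0.34 but lay at 6.80 to 7.38 and 6.50 to 7.21 in the groups, below the olfactory receptor mark.

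Slow-fibre genes rose as well, 12 of 15 with a median of 1.44 units, although none had been used for the ranking. Myoz2, a Z-disc protein that anchors calcineurin in slow fibres, had the largest difference of any named gene: it ran from 10.85 to 12.02 (median 11.50) in the rich strains and from 7.43 to 10.94 (median 8.99) in the poor ones. The difference was 2.27 units (SE 0.33, adjusted p = 6.67e-05), nominally 4.82-fold, and only BXD51 and 1 other poor strain reached the lowest rich value. Myh7, the slow myosin heavy chain, ran from 10.84 to 12.05 against 8.41 to 10.86 and differed by 1.99 (SE 0.26, adjusted p = 2.23e-05). Tnni1, Tnnc1 and Tnnt1, the slow troponins, rose by 1.44, 1.81 and 1.25, Mb (myoglobin) by 1.52 and Mybpc1 by 1.98. Tpm3 did not pass by its brightest probe set (-0.11, adjusted p = 0.916), yet a dimmer probe set of the same gene rose by 1.21, so the probe sets of this tropomyosin gene disagreed.

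**Figure D2:**
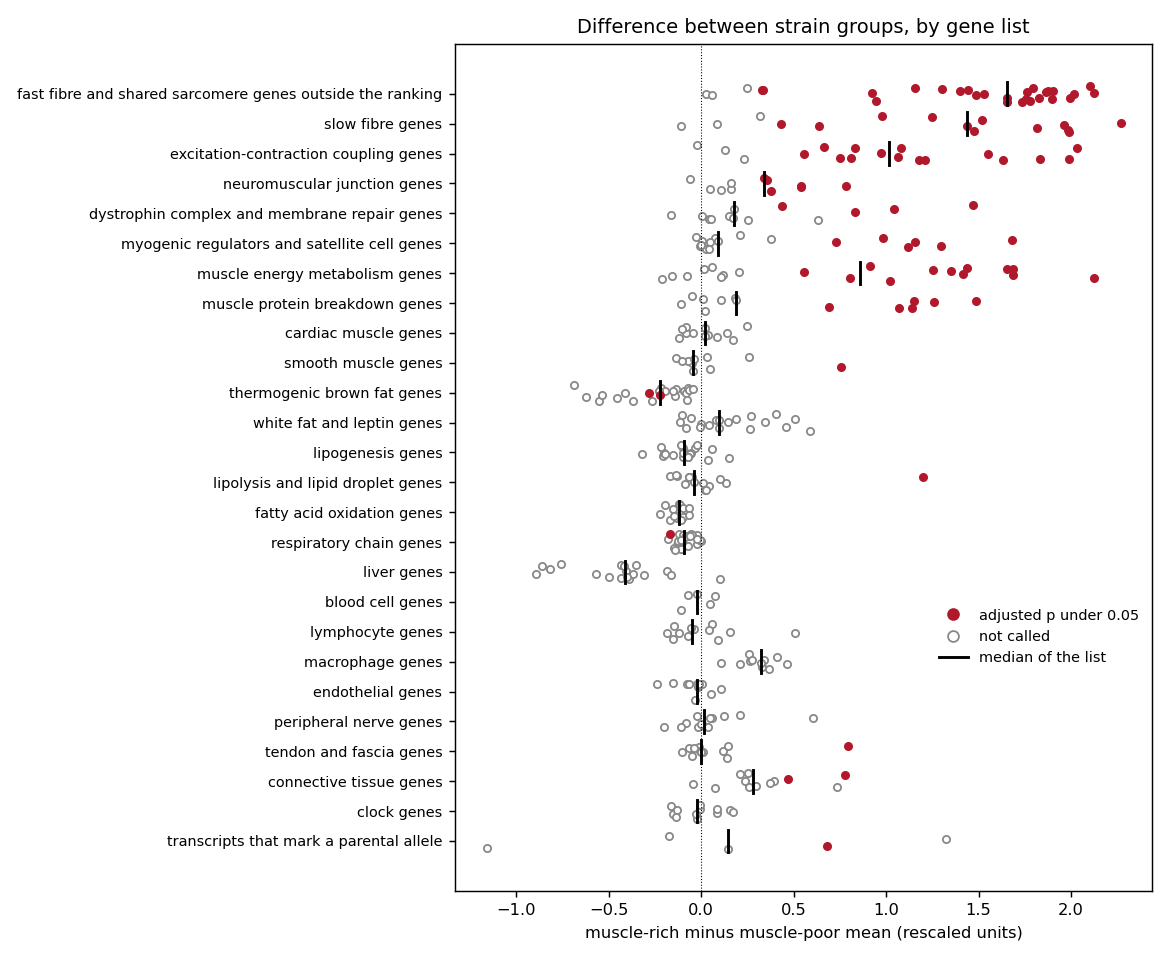
Difference between the means of muscle-rich and muscle-poor strains, in rescaled units, for the genes of 26 lists; each point is a gene, filled where the limma adjusted p was under 0.05, and the vertical bar is the median of the list. Filled points gather in the 8 muscle lists at the top, with medians from 0.09 to 1.65, while the medians of the other 18 lists lie between -0.41 and 0.33.

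Within the rich strains the slow-fibre genes were spread more loosely about the score than the other sarcomere genes, and BXD69 carried much of that spread. Across the 12 rich strains the 12 called slow genes correlated with the score at r from 0.07 to 0.81 (median 0.39), and the 26 called fast-fibre and shared genes at r from 0.30 to 0.95 (median 0.80). Without BXD69, a setting chosen after seeing the data, the medians were 0.64 and 0.87, and the r of the mean over the whole slow list went from 0.41 to 0.69. Mybpc1, at 0.81, was the closest of these slow genes and Sln, at 0.07, the loosest. The ranking genes are themselves mostly fast-fibre genes, the points share arrays, and the difference between the lists was not tested. Sln (sarcolipin, a regulator of the calcium pump that is abundant in slow and atrial muscle) ran from 7.71 in BXD69 through a median of 9.20 to 11.21 in BXD56 among the rich strains and from 6.70 to 8.23 (median 7.26) among the poor. It differed by 1.96 units (SE 0.27, adjusted p = 3.2e-05), and 3 poor strains reached the value of BXD69. BXD69 ranked 3 in muscle score, but the mean of its slow-fibre genes was 10.15, the lowest of the rich group beside BXD45 (10.16) and level with BXD51 of the poor group at 10.15. BXD69 also held the lowest rich value of Ankrd2 (10.08), Csrp3 (10.23), Tnnt1 (9.25) and Myl2 (9.16). BXD101 of the middle strains had a slow-fibre mean of 10.63, above 9 of the 12 rich strains.

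**Figure D3:**
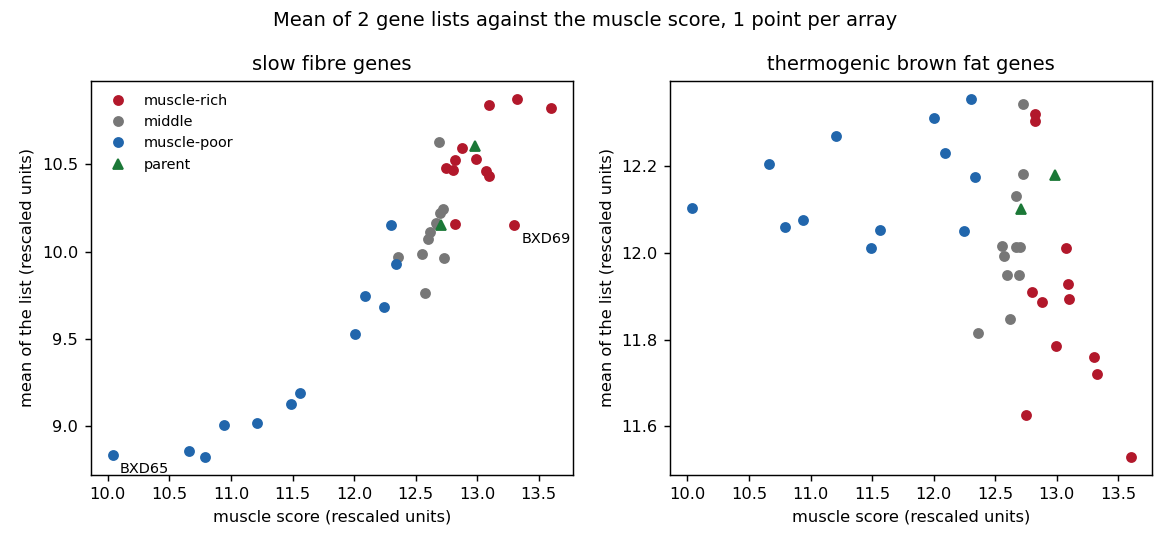
Mean level of the slow-fibre list (left) and of the thermogenic brown fat list (right) against the muscle score, both in rescaled units, 1 point per array, with the 35 strains by group and the parents as triangles. The slow-fibre mean rises from 8.83 in BXD65 to 10.87 in BXD83 with BXD69 low among the rich strains, and the thermogenic mean is lowest, at 11.53, in BXD97.

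Genes that turn a nerve signal into contraction followed the ranking closely, 15 of 18 with a median of 1.02 units. Ryr1, the calcium release channel, ran from 12.10 to 13.03 (median 12.52) in the rich and from 9.09 to 11.92 (median 10.67) in the poor strains and differed by 1.83 (SE 0.26, adjusted p = 5.81e-05). Cacna1s, the voltage sensor that opens it, differed by 1.55, Casq1 (the calcium store of fast fibres) by 1.99 and Trdn (triadin, which tethers calsequestrin to the channel) by 2.03. None of these 4 overlapped between the groups, which are the ends of a score that they followed at r from 0.97 to 0.99. At the neuromuscular junction 6 of 11 genes passed, with a median of 0.34: the receptor subunits Chrna1 (0.78), Chrnb1 (0.54) and Chrne (0.35), the receptor kinase Musk (0.54), its partner Lrp4 (0.34) and the clustering protein Rapsn (0.38). The fetal subunit Chrng (-0.06) and Chrnd (0.05) did not pass. Chrnb1, Chrne, Musk and Lrp4 had mean levels from 7.75 to 7.94, at or below the olfactory receptor mark. The 6 calls were 2 with dim transcripts left out, 1 without the 6 strains poorest in muscle transcripts, and 4 with the methods' adjusted t-test, with liver genes as a covariate or with ranking by Acta1, Ckm and Myh4. Of 13 genes of the dystrophin complex and membrane repair 4 passed, namely Sgca (1.47), Capn3 (1.04), Dmd (0.83) and Lama2 (0.44), and the median was 0.18.

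Energy metabolism genes of muscle passed in 12 of 20 cases with a median of 0.86. Those that passed included Ckmt2 (mitochondrial creatine kinase of muscle, 2.12), Pygm (muscle glycogen phosphorylase, 1.68), Ampd1 (muscle AMP deaminase, 1.68), Cox6a2 (the muscle form of a cytochrome oxidase subunit, 1.66), Pgam2 (1.44), Eno3 (1.42) and Pfkm (1.02). The 8 that did not pass were Amd1 (0.20), Aldoa (0.12), Bpgm (0.11), Hk2 (0.06), Gys1 (0.01), Fabp3 (-0.08), Gpd1 (-0.16) and Ldhd (-0.21). A dimmer probe set of Gpd1 fell by 0.31 (adjusted p = 0.0054), so the probe sets of this gene disagreed. Pygm was the transcript most like the score over 35 strains (r = 0.99), ahead of Ryr1, Myot, Ttn and Neb, and ran from 13.25 to 14.28 in the rich and from 10.42 to 13.13 in the poor strains. The ubiquitin ligases of muscle protein breakdown Fbxo32 (1.48, SE 0.26) and Trim63 (1.26, SE 0.23) were higher, with Fbxo40, Asb2, Trim54 and Trim55, making 6 of 13. The fasting-response genes Pdk4 (0.01), Foxo1 (-0.05) and Klf15 (0.11) on the same list did not pass. Among the rich strains Fbxo32 ran from 10.86 in BXD45 to 12.57 in BXD83, and both ligases overlapped the poor group.

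Of 17 regulators of the muscle lineage 6 passed, and the list's median was 0.09. Myf6, the member of the MyoD family that mature fibres express, ran from 9.74 to 11.16 (median 10.12) in the rich and from 7.67 to 9.44 (median 8.69) in the poor strains, without overlap, and differed by 1.68 (SE 0.20, adjusted p = 7.53e-06). Mef2c, a partner of that family, differed by 0.98 (SE 0.10), Mstn (myostatin, a secreted brake on muscle growth) by 1.30, Vgll2 by 1.16, Des (desmin, the intermediate filament of the fibre) by 1.12 and Eya1 by 0.73. The other MyoD-family factors did not pass: Myod1 ran from 8.31 to 8.82 against 8.19 to 8.90 (0.03, SE 0.07), Myog from 8.15 to 8.52 against 7.86 to 8.61 (0.07, SE 0.07) and Myf5 from 7.29 to 7.78 against 7.21 to 7.72 (0.01, SE 0.06). Pax7, the marker of satellite cells, was at 7.93 to 8.58 and 7.97 to 8.65 (-0.00, SE 0.08), and Pax3 differed by -0.03. Myf5 and Pax7, whose lineage brown fat and muscle share, thus had levels near the olfactory receptor mark of 7.94 in both groups. A small difference is hard to see there. Myod1 and Myog, with mean levels of 8.57 and 8.36, lay above this mark, against 9.50 for Myf6. On the same list Vgll2 passed at a mean level of 8.47, so a call was possible at such levels. Cdh15 (8.41) and Six4 (8.22) did not pass. Whether level hid a difference in Myod1 or Myog was not tested.

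**Figure D4:**
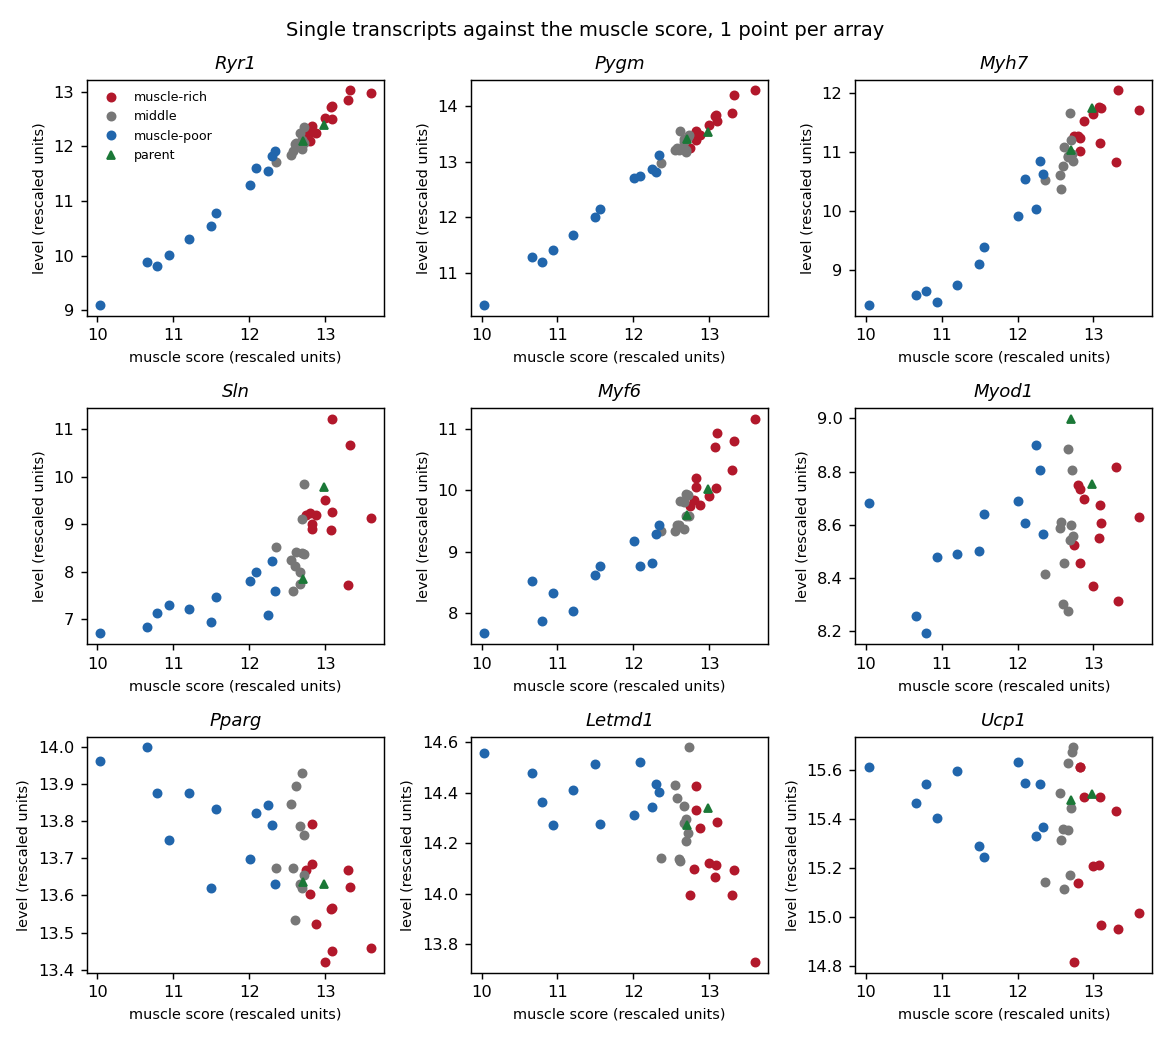
Levels of 9 transcripts against the muscle score on each array, both in rescaled units; circles are strains by group and triangles the parents. Ryr1 and Pygm lie along a line, Myh7, Sln and Myf6 rise with more scatter, Myod1 shows no slope, and Pparg and Letmd1 are lower in the rich strains by 0.22 and 0.28.

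Outside the muscle lists the 10 named genes with the largest rise were Ankrd2 (2.01), Apobec2 (1.98), Asb5 (1.85), Flnc (1.83), Hfe2 (1.76), Tmem38a (1.75), Ppp1r3a (1.75), 3425401B19Rik (1.74), Mypn (1.74) and Abra (1.71). Most are muscle proteins that the lists had left out: Ankrd2 responds to stretch, Flnc (filamin C) and Mypn (myopalladin) sit at the Z-disc, Tmem38a is a potassium channel of the sarcoplasmic reticulum, Ppp1r3a directs a phosphatase to glycogen, and Hfe2 (hemojuvelin) is made in muscle and liver. Several regulators were picked from the called genes after their values were seen, so their calls are a description. The T-box factor Tbx15, which also marks some fat depots, had means of 10.67 and 9.63 in the rich and poor groups and differed by 1.04 (adjusted p = 1.24e-05). The imprinted RNA H19 differed by 1.24, Fndc5 (the precursor of irisin) by 0.56, and the limb-muscle factor Lbx1 by 0.44 at a mean level of 7.78, below the olfactory receptor mark.

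Over the 538 higher genes, 379 had at least 1 start-site window in the RefSeq table, 503 windows in all. The MEF2 site was in 8.75% of them and in 3.19% of the 32851 windows of all genes, and the CArG box in 3.58% and 1.63%. E-boxes, present in 71.8% and 72.3%, and the TATA motif, in 12.1% and 13.6%, were at near equal shares. The 125 windows of genes higher by over 1 unit held E-boxes in 80.8% and the MEF2 site in 12.8%. Their shares of the CArG box and the TATA motif were 5.6% and 12.8%. Of 51 windows of lower genes none held the MEF2 site, but these are too few to set against a share of 3.19%. These shares were not tested, and they count letters in 300 bases only.

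Markers of other tissues were read beside these results. None of 12 cardiac genes passed in limma or in the adjusted t-test of the study's methods (1 had an unadjusted p under 0.05) and their median was 0.02; Myh6 lay between 6.51 and 7.77 in all 24 strains, at background. Of 10 smooth muscle genes only Synpo2, which skeletal Z-discs also contain, passed (0.76, adjusted p = 6.15e-06), with Myh11 at -0.05 and Acta2 at 0.03. Of 12 tendon and fascia genes only Thbs4 passed (0.79), while Tnmd and Scx, which define tendon cells, differed by -0.01 each. Lists of lymphocyte, endothelial, nerve, blood and clock genes held no call by either test. They had 1, 1, 3, 0 and 2 genes at an unadjusted p under 0.05 in limma. Over all probe sets 1.41% were called higher and 0.192% lower, so no call in lists this short, the cardiac list included, does not set them apart. In limma 1 nerve gene was called higher with the continuous score, 8 strains against 8, 35 strains in 3 groups or dim transcripts left out. Of 12 connective tissue genes 11 were above 0 with a median of 0.28, 10 had an unadjusted p under 0.05, and Mfap5 (0.78, adjusted p = 0.0423) and Col1a2 (0.47, adjusted p = 0.00794) passed in limma. These 2 calls were 1 with the methods' adjusted t-test or with the parents ranked among the strains, 4 with 8 strains against 8 and 0 without the 6 poorest strains. The fibroblast genes Pi16 (1.01), Col14a1 (0.75) and Thbs2 (0.74) were picked from the called genes after their values were seen. Their calls therefore add no support to the list. All 11 macrophage genes were above 0, with a median of 0.33 and no call by either test (5 at an unadjusted p under 0.05). In limma 1 was called higher with the continuous score, 8 strains against 8, 35 strains in 3 groups or 1 probe set per gene. The mean of the macrophage list ran from 9.12 to 10.56 in the rich and from 8.84 to 9.73 in the poor strains. The part of these cells in the differences of the muscle genes was not tested.

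Liver transcripts moved with 1 strain. The 18 liver genes held no call by either test, had none at an unadjusted p under 0.05 and had a median of -0.41, but the mean of the list was 11.93 in BXD70 against 7.33 to 8.03 in the other 11 poor strains and 7.29 to 7.88 in the rich ones. Alb (albumin) reached 14.96 in BXD70 with a median of 8.05 in its group. DBA/2J had a liver mean of 10.27 as well. With BXD70 left out and the ends redrawn, BXD103 of the middle strains entered the poor group and 664 probe sets were called. Of these, 597 were among the 660 of the main comparison, and the part of each strain in the change was not tested.

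Brown fat genes were slightly lower in the rich strains. All 22 thermogenic genes measured had a difference below 0, with a median of -0.22, but only 2 passed, Pparg (the master regulator of adipocytes) and Letmd1 (a mitochondrial protein enriched in brown fat). Pparg ran from 13.42 to 13.79 (median 13.59) in the rich and from 13.62 to 13.998 (median 13.83) in the poor strains and differed by -0.22 (SE 0.05, adjusted p = 0.0205). Letmd1 ran from 13.73 to 14.43 against 14.27 to 14.56 and differed by -0.28 (SE 0.06, adjusted p = 0.013), and both genes overlapped between the groups. With quantile normalization or without the 6 poorest strains neither passed, and 1 did with 8 strains against 8 or with ranking by Acta1, Ckm and Myh4. The list median under quantile normalization was -0.19, with all 22 still below 0. Ucp1 differed by -0.22 (SE 0.09, adjusted p = 0.322), Cidea by -0.09, Dio2 by -0.55 and Elovl3 by -0.54, none past the threshold; Elovl3 ran from 8.54 to 13.89 within the rich group alone. The mean of the list ran from 11.53 in BXD97 to 12.32 in BXD45 in the rich strains and from 12.01 to 12.36 in the poor.

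The genes that burn lipid leaned the same way by smaller amounts. All 16 fatty acid oxidation genes were below 0 (median -0.12) with no call in limma, 11 at an unadjusted p under 0.05 and 2 calls by the methods' adjusted t-test, and all 22 respiratory chain genes were below 0 (median -0.09; 18 of 22 with quantile normalization) with 1 call, Cyc1 (cytochrome c1), which ran from 14.07 to 14.35 against 14.24 to 14.47 and differed by -0.17 (adjusted p = 0.027). It did not pass with quantile normalization, with 8 strains against 8, with ranking by Acta1, Ckm and Myh4 or without the 6 poorest strains. Because every array had been set to the same mean and spread, a rise of abundant muscle transcripts and a fall of fat transcripts are not measured independently of each other. None of 19 white fat genes and none of 20 lipogenesis genes passed at the adjusted threshold in limma (1 and 2 had an unadjusted p under 0.05). Lep differed by 0.46 and Adipoq by -0.06. In limma 1 white fat gene was called higher with 8 strains against 8, with BXD70 left out and the ends redrawn, or with liver genes as a covariate. Among lipolysis genes Fitm1, a lipid droplet protein expressed mainly in muscle, rose by 1.20 and no other of the 15 passed.

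The 15 named genes with the largest falls were Myo5b (-0.58), Trbv13-2 (-0.57), Traf4 (-0.52), Sec14l4 (-0.46), Rgs7 (-0.43), Krt31 (-0.40), B930041F14Rik (-0.40), Dbt (-0.39), Klk1b21 (-0.39), Spata22 (-0.39), Rnf5 (-0.38), Kctd1 (-0.37), LOC100861902 (-0.37), Ciapin1 (-0.34) and 4931406C07Rik (-0.34). Trbv13-2, Krt31 and Klk1b21 had mean levels from 7.21 to 7.60, below the olfactory receptor mark. Leaving out each of the 24 strains in turn, Myo5b lost its call in 17 cases, Sec14l4 in 15, B930041F14Rik in 14, Ciapin1 in 9, Traf4 in 8 and Rgs7 and Spata22 in 4 each, and without the 6 poorest strains none of the 15 passed. Dbt, a subunit of the complex that breaks down branched-chain amino acids, ran from 12.13 to 12.91 (median 12.57) in the rich and from 12.63 to 13.12 (median 12.92) in the poor strains (SE 0.07, adjusted p = 0.00147), and the groups overlapped. Lower genes named after their values were seen, which stand for no list, were Hibadh of valine breakdown (-0.22, adjusted p = 0.00303), Ndufs8 of complex I (-0.28, adjusted p = 0.0157), Dlst of the tricarboxylic acid cycle (-0.18) and Prkar2b, a regulatory subunit of protein kinase A (-0.21, adjusted p = 0.00667).

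Transcripts that mark a parental allele were read to see how the parental genomes fell between the groups. H2-Ea-ps, high in DBA/2J (12.14) and low in C57BL/6J (7.55), was above the midpoint of the parents in 4 of 12 rich strains and in 1 of 12 poor ones (difference 1.32, SE 0.77, adjusted p = 0.619). Mela was above it in 6 and in 9. Nnt, a mitochondrial transhydrogenase, passed with a difference of 0.68 (SE 0.14, adjusted p = 0.00359), running from 9.00 to 10.12 in the rich and from 8.36 to 9.27 in the poor strains; the parents were at 9.27 and 9.32, so this probe set did not separate the parental alleles. Ahr, the aryl hydrocarbon receptor gene that the study examined, differed by -0.18 (SE 0.15, adjusted p = 0.773).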

How the data were processed

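Brown adipose tissue RNA of 35 BXD strains and 2 parents was hybridised to 1 Affymetrix array each. The deposited table holds 1 expression score per probe set and array, which the authors had rescaled to a mean of 8 and an SD of 2 on each array after Affymetrix Expression Console (per the labels); the summary method, background correction and log base are not given in the sources used here. The table holds no counts, so the number of arrays limits the precision, and with 1 pool per strain no spread within a strain is known. Strains were ranked by the mean of the 12 ranking genes (brightest probe set per gene), and the groups of 12 were compared with limma 3.58.1 in R 4.3.3, with Benjamini-Hochberg adjustment over 41142 probe sets; the 190 control probe sets and the 13 of the ranking genes were left out. Figures used matplotlib 3.10.9. A gene is represented by its brightest probe set. Named genes were the 15 highest and 15 lowest called, the 10 on each side outside the muscle lists, the 5 most like the score, and members of the lists (397 of 404 listed genes found). The members and lists were chosen with earlier results of these data known. Simulated normal values for 12 against 12 arrays used each probe set's BXD mean and its SD within the muscle-rich strains. Of 200 probe sets shifted by 0.5, 1 or 2 units, 75.5%, 97.5% and 100% were recovered, with 5, 15 and 10 false calls. The rich strains were the tighter group in muscle score, so recovery may be overstated for transcripts that follow the score. Alternatives changed the scaling, the ranking, the filter, the test and the strains.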

Additional observations from a re-analysis of the deposited data

How the results depend on the processing

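The counts of calls, the score and the named genes recomputed under the alternatives kept their direction, and so did all 660 calls wherever they were tested; uncalled differences, correlations and allele counts were not all recomputed. The 581 higher calls became 2099 with the methods' t-test without adjustment and 237 without the 6 strains poorest in muscle transcripts (chosen after seeing the data), and ranged from 496 to 662 when each strain was left out. The 79 lower calls became 128 with the score as a continuous covariate, 161 with dim transcripts left out, 2157 with the unadjusted t-test and 4 without the 6 poorest strains. They ranged from 51 (without BXD97) to 133 (without BXD45), with 52 without BXD90 and 123 without BXD55. After Benjamini-Hochberg adjustment the methods' t-test gave 556 higher and 100 lower. Calls in the 8 muscle lists ranged from 84 to 88 over the strains left out and were 70 without the 6 poorest. The 3 lower calls among fat genes became 0 with quantile normalization or without the 6 poorest, 1 with 8 strains against 8, 5 with dim transcripts left out or 1 probe set per gene, and 6 or 38 with the t-test after and without adjustment; the range over strains left out was 2 (BXD97) to 5 (BXD55). The 5 higher calls in the lists outside muscle and fat (4 in other cell types and Nnt among the parental markers) became 8 with the continuous score or 3 groups, 9 with 8 against 8, 23 with the unadjusted t-test and 1 without the 6 poorest, and ranged from 4 to 9 (BXD45). The causes were not tested. Ranking by Acta1, Ckm and Myh4 shared 9 rich and 11 poor strains. No paired analysis was possible because each strain had 1 array.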
